A study of Homo sapiens with 3 samples.

Results

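The array hybridised with RNA from LNCaP prostate cancer cells that had received the second of a pair of siRNAs against HOXD-AS1, here siRNA 2, was set against the array of cells that had received a control siRNA. All probe sets that the platform annotation assigned to exactly 1 gene were compared, which was 44988 of the 49388 probe sets in the table, and the comparison used 2 of the 3 arrays of the series. The brightest of its probe sets, by mean log2 intensity, stood for each gene. Of 18131 genes with such a probe set, 11162 were measured, meaning that the control or the siRNA 2 array read above an intensity floor of 26.0, the median of all values, and lower values were raised to that floor. The third array, from cells that had received siRNA 1, was used only to mark differences seen with siRNA 2 alone.

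LNCaP is an established, androgen-responsive human prostate cancer line. Per the labels, the cells grew in RPMI-1640 free of phenol red with serum and antibiotics, and all 3 groups received 75 nM siRNA with a lipid carrier for 48 h. The control group received the negative control siRNA, titled LNCaP-Control, and the siRNA 2 group the duplex titled si-HOXD-AS1-2. Each group was 1 array, so no difference below has a replicate check, no test was possible, and precision is limited by having 1 array a side. The cell line label was LNCaP for all arrays, but the source labels read LNCaP for the control, LNCaP-Bic for siRNA 1 and LNCaP-AI for siRNA 2. A difference between cells of these names and a difference between siRNAs cannot be told apart in these data. The labels give an inhibition rate of 1 to the control, 0.23 to siRNA 1 and 0.25 to siRNA 2. The method of that measurement is not given, nor whether the value stands for remaining level or for loss. The targeted transcript itself was not analysed here.

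HOXD-AS1 is an antisense long non-coding RNA from the HOXD cluster, a group of homeobox genes that pattern the body axis. A small interfering RNA is a short duplex of which one strand is loaded into an Argonaute protein and guides the cleavage of a complementary transcript. Bases 2 to 8 of a loaded strand, the seed, can also pair with other mRNAs in the way a microRNA does and lower their levels, which is why several siRNAs against one target are usually compared.

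The duplexes are shown because siRNA 2 and siRNA 1 share the named target but not their sequences. Each is given 5′ to 3′ as the strand printed in the labels, followed by the reverse complement of its first 19 bases, with bases 2 to 8 in capitals. The labels do not say which strand is the guide.
siRNA 2, printed strand: gCCCUUUCugaccugcuuauu
siRNA 2, complement: uAAGCAGGucagaaagggc
siRNA 1, printed strand: gAAAGAAGgaccaaaguaauu
siRNA 1, complement: uUACUUUGguccuucuuuc
Control siRNA, printed strand: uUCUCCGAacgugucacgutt
Control siRNA, complement: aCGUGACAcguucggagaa
The 19-base core of siRNA 2 held 52.6% G and C, as did that of the control siRNA, against 36.8% in siRNA 1. Of the human mature miRNAs in the RefSeq table, 0 of 2370 had the same bases 2 to 8 as either strand of siRNA 2. Matches of these bases in the transcripts of the genes below were not tested.

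The control and siRNA 2 arrays had nearly the same spread of values. The median intensity was 26.1 on both, the highest value was 18396 on the control array and 18633 on the siRNA 2 array, and their sorted log2 values differed by at most 0.071. Over measured genes the log2 difference of siRNA 2 over control had a median of 0.02 and an SD over genes of 0.36, with 52.3% of genes above 0. A set of 24 housekeeping genes had a median difference of 0.04, with 0 genes past 1.5-fold. The 37 measured ribosomal protein genes had a median of -0.05 and 0 past 1.5-fold. All 16 luminal prostate markers with a probe set were above the floor on the control or siRNA 2 array. PTPRC, the pan-leukocyte antigen, was far below the floor at 3.14 on both arrays, while 5 of 15 leukocyte markers were above it on either array.

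With siRNA 2, 89 genes were at least 2-fold higher than in the control (0.797% of measured genes) and 68 were at least 2-fold lower (0.609%), together 1.41%. The range was uneven. At least 3-fold, 21 genes were higher (0.188%) and 2 were lower (0.0179%), and at least 4-fold 12 were higher and 1 was lower. At 1.5-fold the numbers were nearly equal, with 536 higher (4.8%) and 527 lower (4.72%), together 9.52%. All 157 genes past 2-fold were protein-coding in RefSeq. When a gene was read as the mean of all its probe sets in place of the brightest, 47 genes were 2-fold higher and 25 lower, of which 43 and 24 were among those counted above. With measured genes split by brightness into 5 equal groups, from dim to bright, the higher genes past 2-fold numbered 12, 21, 19, 26 and 11 and the lower 11, 17, 15, 15 and 10.

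**Figure D1:**
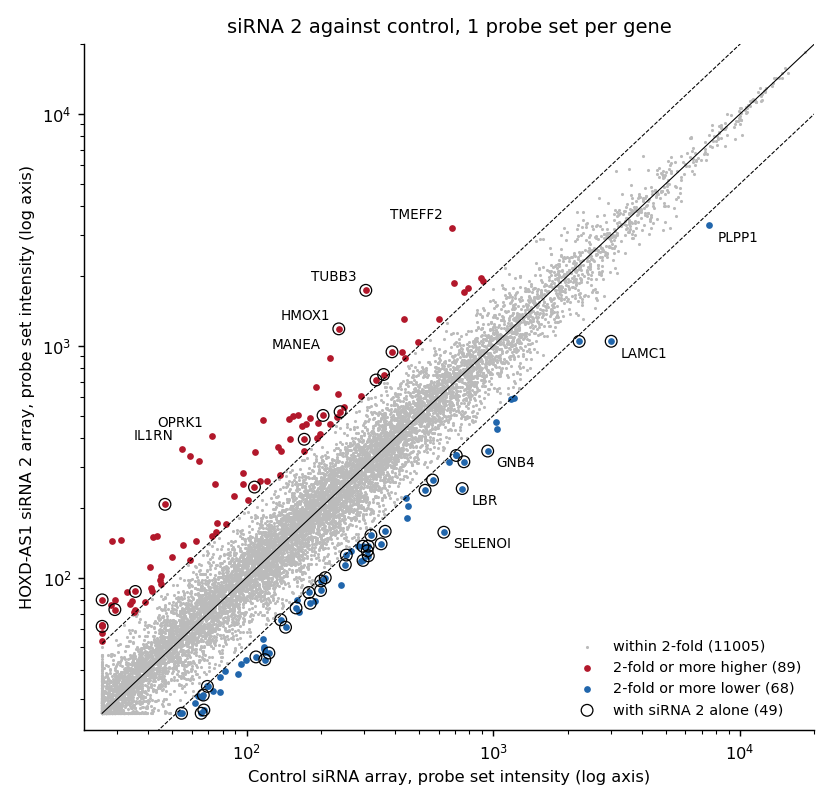
Probe set intensity on the siRNA 2 array (vertical, log axis) against the control array (horizontal, log axis) for the 11162 measured genes, with values under 26.0 drawn at that floor; the solid line is equality and the dashed lines are 2-fold. The 89 higher genes (red) reach farther from the line than the 68 lower genes (blue), and circles mark the 49 genes set apart with siRNA 2 alone.

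Genes read by more than 1 probe set offer a check within the array pair. Where the probe sets lie on the transcript was not examined, and some may share probes. Probe sets of a gene share the RNA and the array and are not replicates of the condition. Further measured probe sets existed for 57 of the 89 higher genes, and all were also higher in 57 of 57. In 36 of these (63.2%) all were at least 50% as large on the log2 scale. Of the 68 lower genes, 41 had further measured probe sets, all lower in 39 (95.1%) and all at least 50% as large in 18 (43.9%). Over all 6155 measured genes with further probe sets, 65.0% had all of the same sign and 44.7% had all at least 50% as large. By size the lower genes were thus near the share of all measured genes. Among further probe sets above the floor on both arrays, 36 of 48 higher genes (75.0%) and 21 of 31 lower genes (67.7%) had all of them at least 50% as large. The share over all measured genes with such probe sets was 47.1%. The SD of the log2 difference between probe sets of 1 gene was 0.20, and it was 0.21 where the dimmest probe set was under 64 and 0.09 where it was 1024 or brighter.

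**Figure D2:**
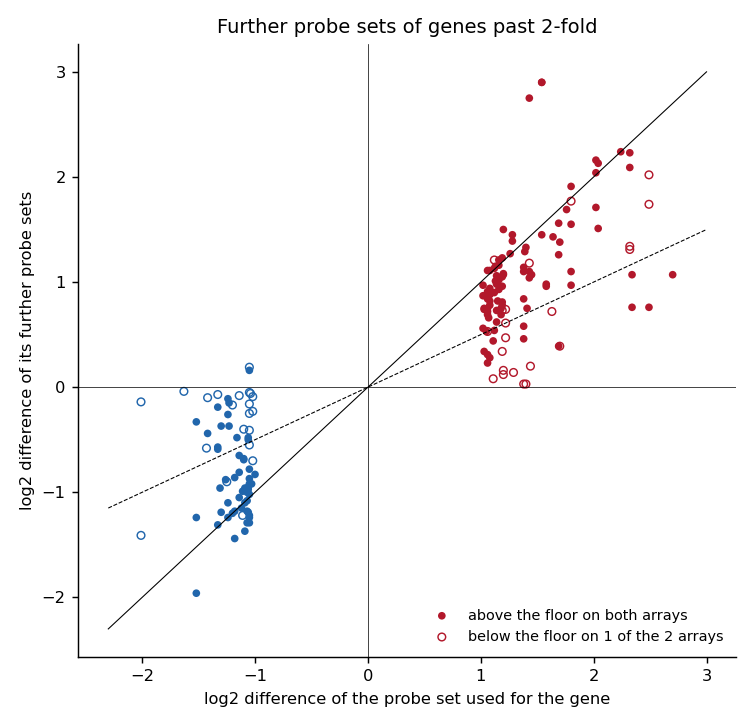
The log2 difference (siRNA 2 minus control) of each further probe set (vertical) against that of the probe set used for the gene (horizontal), for genes past 2-fold; the solid line is equality, the dashed line 50% of it, and open points were below the floor on 1 of the arrays. Red points (higher genes) all lie above 0, and in 2 of 41 lower genes a further probe set lies at or above 0.

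The highest difference was that of IL1RN, the secreted antagonist of the interleukin-1 receptor, which read 55.0 in the control and 357 with siRNA 2, 6.49-fold higher. Its further probe set differed by 1.07 on the log2 scale. TUBB3, the class III beta-tubulin of neurons, read 304 in the control and 1733 with siRNA 2, 5.70-fold higher. It read 242 with siRNA 1, so the siRNA 2 array alone was high. TUBB3 was read by a single probe set whose identifier has the _x_ suffix, used by the manufacturer for probes that may also bind similar sequences. The other measured beta-tubulin genes TUBB2A, TUBB4A, TUBB4B, TUBB6 and TUBB8, named after their values were seen, differed by 0.09, -0.01, 0.12, 0.40 and -0.03.

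NAV3, a microtubule plus-end protein of the neuron navigator family, read 59.2 in the control and 333 with siRNA 2, 5.64-fold higher. ACTA2, smooth muscle alpha-actin, read 41.7 and 150.0, 3.59-fold higher, but its other probe sets were below the floor on both arrays, and as the mean of all of them it differed by 0.62 on the log2 scale. Both read between the control and siRNA 2 arrays with siRNA 1, at 153 for NAV3 and 92.9 for ACTA2. COL5A2, a fibrillar collagen chain, read 63.9 in the control and 320 with siRNA 2, and its further probe sets differed by 1.31 and 1.34.

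OPRK1, the kappa opioid receptor, read 72.4 in the control and 408 with siRNA 2, 5.63-fold higher, and its 3 further probe sets differed by 0.76, 1.74 and 2.02. GRIN3A, a subunit of NMDA-type glutamate receptors, read 31.1 and 145, 4.67-fold higher from a control value just above the floor. PLA2G2A, a secreted phospholipase A2, read 117 and 480, 4.11-fold higher, with differences of 1.51 and 2.13 in its further probe sets. OPRK1 and PLA2G2A were thus higher by each of their measured probe sets, while GRIN3A had a single measured probe set. TMEFF2, a transmembrane protein with follistatin domains, read 682 in the control and 3210 with siRNA 2, with a difference of 2.24 in each of its probe sets. ACP3, prostatic acid phosphatase, a secreted product of luminal cells, read 190.5 and 664, and its 3 further probe sets differed by 1.10 to 1.77. CEL, a bile salt-dependent lipase, read 74.8 and 253, and RLN1, the peptide hormone relaxin 1, read 46.7 and 207. RLN1 has a close paralog, RLN2, and only 1 probe set read it here, so a part of its signal may be shared.

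HMOX1, the heme oxygenase that degrades heme and is induced by oxidative stress, read 236.5 on the control array, 234 under siRNA 1 and 1182 under siRNA 2. The siRNA 2 value was 5.00-fold higher than the control and the other arrays were nearly equal. The further HMOX1 probe sets differed by 2.09 and 2.23. APOBEC3H, a cytidine deaminase that restricts retroviruses, read 28.4 and 144, 5.08-fold higher, and its further probe sets differed by 0.76 and 1.07. MANEA, an endomannosidase of the Golgi, read 217 and 884, with 1.71 to 2.16 in its further probe sets. The vesicle fusion protein gene STX12 and the RAB27 effector gene SYTL2 differed by 1.70 and 1.69, and the F-box gene FBXO2, the dermatan sulphate epimerase-like gene DSEL and PRR16 by 1.69, 1.64 and 1.80. Further probe sets differed by 0.39 and 1.38 for STX12, 0.39 and 1.26 for FBXO2 and 0.97 and 1.91 for PRR16. Those of SYTL2 and DSEL differed by 1.56 and 1.43.

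The lowest difference was that of SELENOI, the selenoprotein that forms phosphatidylethanolamine, which read 630.1 on the control array, 567 under siRNA 1 and 157 under siRNA 2. It was 4.01-fold lower and the single gene past 4-fold in this direction. A further probe set differed by -1.41, and the other, at 28.6 in the control, by -0.14. LBR, the lamin B receptor of the inner nuclear membrane, read 748, 603 and 242 in the same order, 3.09-fold lower than the control, with a further probe set near the floor that differed by -0.04. LAMC1, the gamma 1 chain of most laminins, read 3002 on the control array, 3754 under siRNA 1 and 1045 under siRNA 2, 2.87-fold lower. Its further probe sets differed by -1.96, -1.24 and -0.33. The third probe set, at 755 and 599, was bright, so the probe sets of LAMC1 disagree on the size. GNB4, a beta subunit of heterotrimeric G proteins, read 949, 792 and 351, with -0.58 in its further probe set.

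VPS36, a subunit of the ESCRT-II sorting complex, read 119 in the control and 44.3 with siRNA 2, but its further probe sets differed by -0.44 and -0.10. KLHL15, an adaptor of a cullin ubiquitin ligase, read 123 and 47.3. SLC7A2, a transporter of cationic amino acids, read 311 and 124, with -1.31 in one further probe set and -0.07 in a dim one. VKORC1L1, a vitamin K epoxide reductase, differed by -1.33, but its 3 further probe sets by -0.59 to -0.19. All 4 read within 1.5-fold of the control with siRNA 1. STK17B, a kinase of the death-associated family, read 65.5 in the control and below the floor with siRNA 2, at least 2.52-fold lower. NDN, the imprinted growth suppressor necdin, read 297 and 119, and POLR3G, an RNA polymerase III subunit, 67.2 and 26.9. The Wnt receptor gene FZD4, the calcium sensor gene HPCAL4, the aminotransferase gene AADAT and the histone chaperone gene HIRIP3 were lower with siRNA 2 by -1.37, -1.28, -1.27 and -1.26, and FZD4 was also low with siRNA 1, at 114 against 241 in the control.

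**Figure D3:**
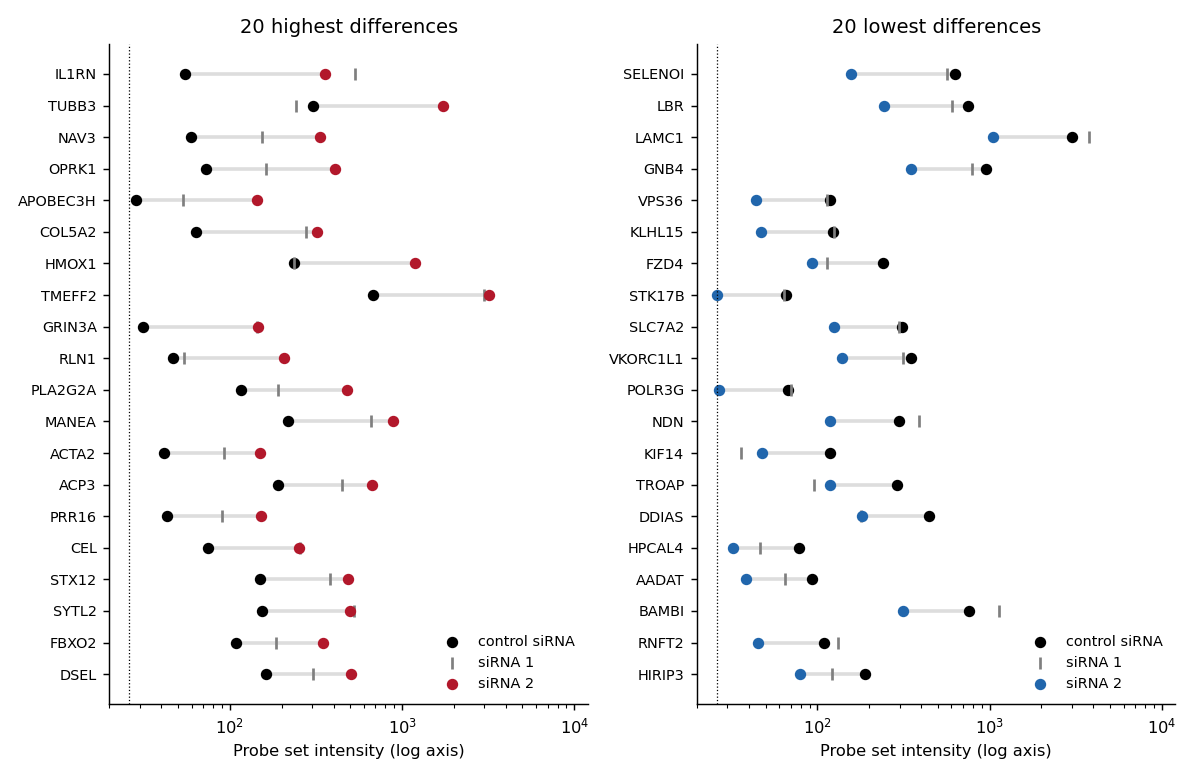
Probe set intensity (log axis) of the 20 genes with the highest (left) and the 20 with the lowest (right) difference on the control array (black), the siRNA 1 array (grey bar) and the siRNA 2 array (red or blue); the dotted line is the floor of 26.0. The siRNA 1 mark lies beside the control for TUBB3, HMOX1, RLN1 and most of the lowest genes, and beside siRNA 2 for TMEFF2, GRIN3A, CEL and DDIAS.

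A gene was counted as set apart with siRNA 2 alone when siRNA 2 was at least 2-fold from both other arrays in one direction and the siRNA 1 array was within 1.5-fold of the control. By this rule 14 genes were higher (0.125% of measured genes) and 35 were lower (0.314%). Lower genes thus outnumbered higher ones here, while higher genes were the more numerous among all that passed 2-fold. With a 1.5-fold threshold, 113 were higher (1.01%) and 206 lower (1.85%). All further probe sets had the same direction in 6 of 6 of the higher and 22 of 23 (95.7%) of the lower genes that had them. In 3 of 6 of the higher and 10 of 23 (43.5%) of the lower genes, all were at least 50% as large. The share over all measured genes with further probe sets was 44.7%, so by size the lower genes were near it. Among further probe sets above the floor on both arrays, this held in 3 of 5 higher and 15 of 18 lower genes (83.3%). The share over all measured genes with such probe sets was 47.1%.

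**Figure D4:**
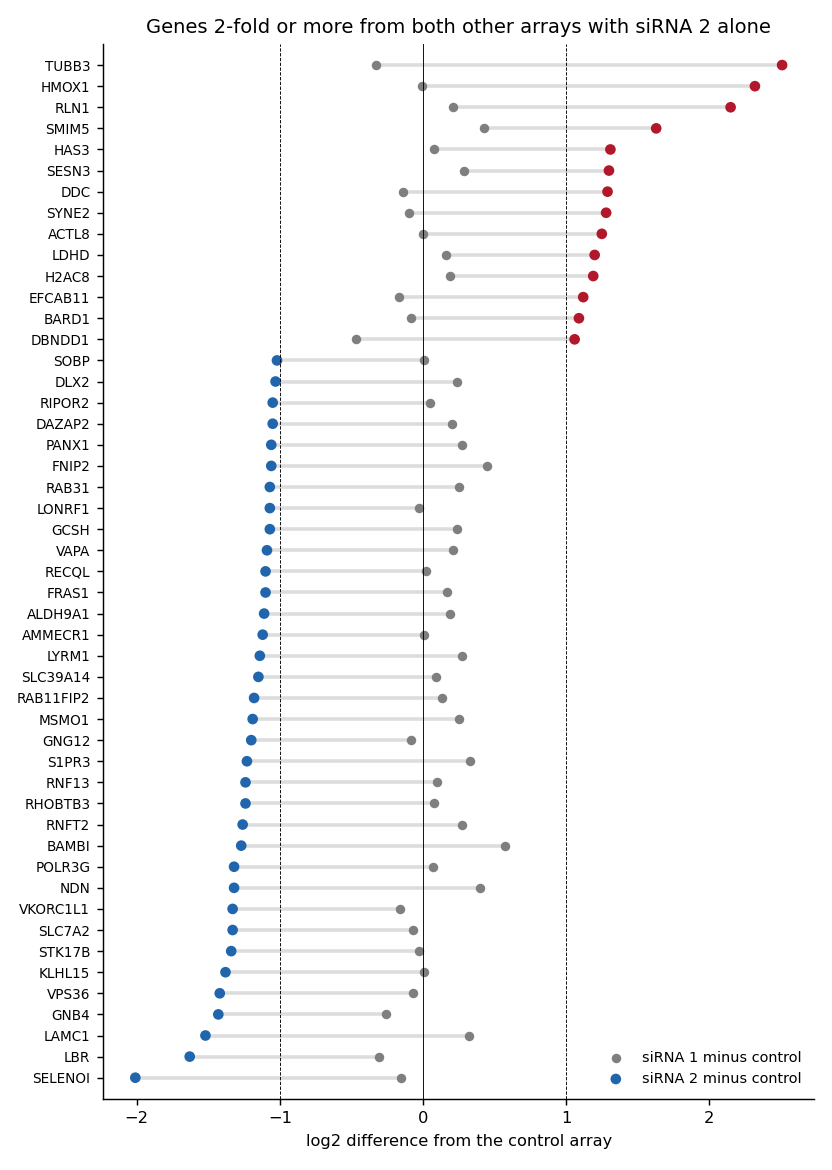
The log2 difference from the control of siRNA 2 (red, higher; blue, lower) and of siRNA 1 (grey) for the 49 genes set apart with siRNA 2 alone; dashed lines are 2-fold. The grey points lie near 0 by the rule that chose these genes, and the siRNA 2 points run from -2.01 for SELENOI to 2.51 for TUBB3.

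Beside TUBB3, HMOX1 and RLN1 the 14 higher genes included SYNE2, the nuclear envelope protein nesprin-2, which read 388.5 on the control array, 362 under siRNA 1 and 941 under siRNA 2, with 1.39 and 1.45 in its further probe sets. DDC, the decarboxylase that forms dopamine and serotonin, read 204, 186 and 500.3. BARD1, the partner of BRCA1, read 335, 317 and 711, and LDHD, the D-lactate dehydrogenase, 171, 191 and 395. All 4 were clearly above the floor on each array. HAS3, a hyaluronan synthase, read 29.3, 31.0 and 72.8, and the testis-expressed gene ACTL8 was below the floor on both other arrays and read 61.6 with siRNA 2, at least 2.37-fold higher. EFCAB11, with an EF-hand domain, differed by 1.12 from the control and DBNDD1, with a dysbindin domain, by 1.06. Further probe sets differed by 0.54 and 1.13 for EFCAB11 and by 0.31 to 0.75 for the 3 of DBNDD1. SMIM5, a small membrane protein, was below the floor in the control and at least 3.09-fold higher with siRNA 2, with 0.72 in its further probe set.

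The 35 lower genes included several transcripts read alike by all their probe sets. VAPA, the endoplasmic reticulum protein that tethers membrane contact sites, read 2227 on the control array, 2582 under siRNA 1 and 1043 under siRNA 2, and its 3 further probe sets differed by -1.37, -1.10 and -0.96. RAB31, a GTPase of the trans-Golgi and endosomes, read 319, 378 and 152, with -1.18, -1.08 and -1.0. RNF13, an endosomal ubiquitin ligase, read 308, 330.4 and 130.4, with -1.10. These were low on the siRNA 2 array by every measured probe set. MSMO1, the sterol C4-methyl oxidase of cholesterol synthesis, read 311, 371 and 137, and the zinc importer gene SLC39A14 read 529, 562 and 238, each with a single probe set. BAMBI, a pseudoreceptor that blocks TGF-beta signalling, read 760 on the control array, 1127 under siRNA 1 and 316 under siRNA 2. The siRNA arrays thus lay on opposite sides of the control for BAMBI. The gamma subunit gene GNG12 of heterotrimeric G proteins (365, 345 and 158) and the sphingosine 1-phosphate receptor gene S1PR3 (181, 227 and 77.5), named after their values were seen, were lower beside GNB4.

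Near the 2-fold threshold the order of genes is fixed by small differences. The type I interferon signalling factor gene IRF9 (1.03) and the ribonucleotide reductase gene RRM2 (-1.03) were just inside it, and the methylthioadenosine phosphorylase gene MTAP (-0.98) and the replication gene GINS3 (-0.97) just outside.

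EGFR, IGF1R, IRS1 and IRS2 were lower with siRNA 2, while GRB10, PIK3R3 and PIK3CD were higher. Receptor tyrosine kinases such as EGFR signal through adaptors, among them the insulin receptor substrates, to PI3-kinase and to the RAS and ERK pathway. Of 42 measured genes of receptor tyrosine kinase and PI3K signalling, 5 were at least 1.5-fold higher and 4 lower, with a median of 0.12 against 0.02 for all measured genes. Of all measured genes 4.8% were 1.5-fold higher and 4.72% lower, and these are the shares beside which the count of each list is to be read. The members of each list were chosen with earlier results of these data known. All 4 lower genes were lower with siRNA 2 alone at this threshold (1.85% of all measured genes), namely the receptors EGFR and IGF1R and the adaptors IRS1 and IRS2 (IGF1R was named after its values were seen). EGFR read 166 on the control array, 160.0 under siRNA 1 and 98.4 under siRNA 2, and its further probe sets differed by -0.50 and -0.21. IRS2 read 70.0, 59.0 and 34.1, IRS1 72.4, 72.2 and 45.4, and IGF1R 126, 166 and 82.9, with -0.96, -0.83 and -0.32 in the further probe sets of IGF1R. IRS1 and IRS2 were dim, and a further probe set differed by -0.05 for IRS1 and by -0.06 for IRS2. On the other side, GRB10, an adaptor that inhibits insulin and IGF receptor signalling, read 436 on the control array, 671 under siRNA 1 and 1301 under siRNA 2, with 0.96 and 0.98 in its further probe sets. PIK3R3, a regulatory subunit of PI3-kinase, read 788.5, 1042 and 1781, and PIK3CD, a catalytic subunit, 239, 297 and 442.

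Immediate early genes, which growth factor signalling induces within minutes, were split. Of 26 measured, 7 were at least 1.5-fold higher and 3 lower, against 4.8% and 4.72% of all measured genes, with a median of 0.12. All 3 lower ones were lower with siRNA 2 alone and nearly equal between the other arrays. The transcription factor gene MYC read 1591 on the control array, 1566 under siRNA 1 and 913 under siRNA 2, 1.74-fold lower. SPRY1, a feedback inhibitor of receptor tyrosine kinase signalling, read 1274, 1277 and 659, with -1.04 in its further probe set. The ERK phosphatase gene DUSP4 read 424, 431 and 222. DUSP5, also an ERK phosphatase, was below the floor in the control and read 62.6 with siRNA 2, at least 2.41-fold higher. The AP-1 subunit gene JUN differed by 0.85, with 0.65 to 1.05 in its 3 further probe sets.

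Genes of the TGF-beta and BMP pathway, in which ligands bind pairs of type I and type II receptor kinases that activate SMAD proteins, had no common direction. Of 35 measured genes, 1 was at least 1.5-fold higher and 6 lower (4.8% and 4.72% of all measured genes), and the median was -0.03 against 0.02 for all measured genes. The type II receptor gene TGFBR2 read 64.0 on the control array, 79.4 under siRNA 1 and 35.3 under siRNA 2. The co-receptor gene TGFBR3 read 235, 211 and 141, with -0.70 in its further probe set, and the type I receptor gene TGFBR1 170.4, 136.5 and 106. The other measured receptor genes of the list lay on both sides of 0, with BMPR1B at 0.15, BMPR2 at 0.22, ACVR1 at 0.08, ACVR1B at 0.33, ACVR2A at -0.11 and ACVR2B at -0.09. The ligand gene BMP7 read 129, 104 and 67.0, with -0.66 in its further probe set, and the BMP-induced gene ID1 differed by -0.59. TGFBR1, TGFBR3, ID1 and these other receptor genes were named after their values were seen. In the Wnt pathway 0 of 32 measured genes were 1.5-fold higher and 3 were lower, against the 4.8% and 4.72% of all measured genes, the receptor gene FZD4 and the ligand genes WNT10B (-0.95) and WNT5A (-0.67).

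Genes of mitosis were lower as a group. The mitosis and G2/M list had a median difference of -0.59 over 49 measured genes, 48 of them below 0, with 25 at least 1.5-fold lower and 0 higher, against 4.72% and 4.8% of all measured genes. In RNA from whole cultures, fewer cells in a phase and less RNA per cell cannot be told apart. The mitotic kinesin gene KIF14 read 119 in the control and 47.9 with siRNA 2, with -0.96 in its further probe set. TROAP, a spindle protein, read 290.0 and 118, with -1.19 and -0.37, and CDC20, the activator of the anaphase-promoting complex, 703 and 337, with -0.48. The proliferation marker MKI67 read 232 and 139, the mitotic kinases AURKA 1501 and 938 and PLK1 102.5 and 65.3, and the transcription factor gene FOXM1 236.5 and 139. Each of these 7 genes was lower still with siRNA 1. The DNA replication and G1/S list had a median of -0.40 over 52 measured genes, with 8 at least 1.5-fold lower and 0 higher. RRM2, the small subunit of ribonucleotide reductase, read 1218 and 598, the GINS complex gene GINS3 163 and 83.3, and the primase gene PRIM1 623 and 367, while CCNE1, cyclin E1, was the highest at 0.37.

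Promoter sequences of these groups are shown because their members moved together and many of them carry known cell cycle elements. The CHR element (TTTGAA) and the CCAAT box are bound in promoters of G2/M genes, and the E2F element (GCGGGAA) in those of G1/S genes. Windows from RefSeq (GRCh38.p14) ran from 250 bases before to 50 after each gene's start and were searched on both strands. TTTGAA was found in 29 of 41 mitosis promoters (70.7%), against 9.34% of the 9229 measured genes with a window and 15.4% of all 27305 windows. CCAAT was found in 33 of 41 (80.5%), against 37.3% of measured genes and 35.7% of all windows. GCGGGAA was found in 18 of 44 replication promoters (40.9%), against 10.6% of measured genes and 6.56% of all windows, and TTTGAA in 1 of those 44 (2.27%). These are features of the gene lists, and among all 60 genes at least 2-fold lower with a window, TTTGAA was found in 8 (13.3%) and GCGGGAA in 6 (10.0%). Each window below is written 5′ to 3′ on the strand of the gene, and capitals mark the CHR element or its reverse complement in CDC20 and KIF14 and the E2F element or its reverse complement in GINS3 and RFC4.
CDC20, chr1:43358731-43359030, plus strand: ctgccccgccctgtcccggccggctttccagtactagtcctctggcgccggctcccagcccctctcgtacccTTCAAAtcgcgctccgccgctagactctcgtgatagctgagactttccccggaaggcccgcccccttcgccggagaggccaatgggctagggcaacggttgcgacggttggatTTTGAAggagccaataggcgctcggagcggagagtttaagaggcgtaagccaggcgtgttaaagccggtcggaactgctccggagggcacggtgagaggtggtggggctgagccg
KIF14, chr1:200620702-200621001, minus strand: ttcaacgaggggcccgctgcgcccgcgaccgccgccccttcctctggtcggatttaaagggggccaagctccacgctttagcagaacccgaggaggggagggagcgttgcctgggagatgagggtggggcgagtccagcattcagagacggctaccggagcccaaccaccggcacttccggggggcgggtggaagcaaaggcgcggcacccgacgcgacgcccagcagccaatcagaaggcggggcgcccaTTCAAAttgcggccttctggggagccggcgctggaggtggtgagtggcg
GINS3, chr16:58392221-58392520, plus strand: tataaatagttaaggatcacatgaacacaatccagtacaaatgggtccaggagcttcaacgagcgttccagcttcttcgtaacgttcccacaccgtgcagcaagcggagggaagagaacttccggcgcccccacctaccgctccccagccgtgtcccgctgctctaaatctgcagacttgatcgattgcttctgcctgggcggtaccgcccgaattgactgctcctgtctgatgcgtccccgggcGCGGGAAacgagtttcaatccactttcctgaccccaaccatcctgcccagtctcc
RFC4, chr3:186806433-186806732, minus strand: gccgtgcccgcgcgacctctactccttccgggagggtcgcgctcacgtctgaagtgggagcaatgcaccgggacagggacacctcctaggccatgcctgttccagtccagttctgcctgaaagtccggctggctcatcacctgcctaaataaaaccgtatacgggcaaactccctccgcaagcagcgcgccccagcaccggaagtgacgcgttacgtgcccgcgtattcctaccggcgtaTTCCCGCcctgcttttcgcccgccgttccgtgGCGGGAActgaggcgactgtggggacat
RFC4, a clamp loader subunit, read 1247 in the control and 769 with siRNA 2, and was named after its value was seen. The CDC20 window held 2 CHR elements and 2 CCAAT boxes, that of KIF14 1 of each, that of GINS3 1 E2F element and that of RFC4 2. Among mitosis windows not shown, that of CDCA8 held 1 CHR element and 3 CCAAT boxes. That of KIF20A held 0 CHR elements and 2 CCAAT boxes. A match of letters is a description and does not show that a factor binds there.

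The listed androgen receptor-repressed genes were higher, while the listed induced genes had no common direction. Both lists were chosen with earlier results of these data known, so their counts are descriptions and no independent support. The androgen receptor is a hormone-bound transcription factor that activates secretory and metabolic genes of luminal prostate cells and represses a smaller set. All 11 measured androgen receptor-repressed genes were above 0, with a median of 0.96, and 8 were at least 1.5-fold and 5 at least 2-fold higher, against 4.8% and 0.797% of all measured genes. The 5 were OPRK1 (2.49), TMEFF2 (2.24), the neuronal transcription factor gene PEG3 (1.45), the CaMKII inhibitor gene CAMK2N1 (1.43), named after its value was seen, and DDC (1.29). PEG3 read 134 in the control and 365 with siRNA 2, with 1.07 in its further probe set. Read by plain probe sets alone, whose identifiers carry no suffix for probes shared between transcripts, 3 genes were left, with a median of 0.16. Of 38 measured androgen receptor-induced genes, 2 were at least 1.5-fold higher and 7 lower, against 4.8% and 4.72% of all measured genes, with a median of -0.08, so the list had no common direction.

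Among the kallikrein genes of the induced list, KLK2 and KLK3 were lower at every probe set, while KLK4, named after its value was seen, differed by 0.27, with 0.26 and 0.45 in its further probe sets. KLK2, a secreted prostate protease, read 5176 on the control array, 4845 under siRNA 1 and 3230.0 under siRNA 2, 1.60-fold lower, and its 11 further probe sets differed by -1.27 to -0.20. KLK3, prostate-specific antigen, read 2602, 2329 and 1931, 1.35-fold lower, and its 6 further probe sets differed by -0.68 to -0.35. KLK2 and KLK3 are close paralogs, so some of their signal may be shared. FKBP5, a co-chaperone of steroid receptors, read 770, 549 and 494, with -0.84 to -0.36 in its further probe sets. PLPP1, a lipid phosphate phosphatase, read 7462, 4571 and 3304, 2.26-fold lower. TMPRSS2, the membrane serine protease, read 1828 in the control and 2253 with siRNA 2, with -0.19 and 0.19 in its further probe sets, and ACP3 was higher. The luminal transcription factor genes HOXB13 and FOXA1 read 820 and 1823 in the control and 913 and 2063 with siRNA 2, but their further probe sets lay below 0, from -0.46 to -0.20 in the 3 of HOXB13 and at -0.05 in that of FOXA1.

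Collagen and matrix genes were mostly higher. Of 38 measured collagen and matrix genes 30 were above 0, with a median of 0.35, and 9 were at least 1.5-fold higher and 2 lower, against 4.8% and 4.72% of all measured genes. COL6A1, a collagen VI chain, read 910.5 in the control and 1893 with siRNA 2, and its 4 further probe sets differed by 0.53 to 0.91. MMP16, a membrane-bound matrix metalloprotease, read 62.2 and 144, with 0.47 to 0.74. COL3A1 was below the floor in the control and read 50.4 with siRNA 2. The lower genes of the list were LAMC1 and HPSE, the heparan sulphate-cleaving heparanase, which read 63.9 and 30.8, with -0.78. With plain probe sets, which left 10 genes, the list median was 0.06. Of the stroma markers 7 of 16 were above the floor on either array, and their summed intensity was 859 in the control and 1095 with siRNA 2. VIM alone gave 660 and 735 of these sums. The part of stromal cells in these values was not tested. The 28 measured genes of integrins, cadherins and junctions had a median of 0.04, near that of all measured genes, with 3 at least 1.5-fold higher and 1 lower, and a median of -0.11 over the 7 genes left with plain probe sets. Among them, the tight junction genes OCLN and CLDN4 read 235 and 384 in the control and 620 and 659 with siRNA 2, with 1.33 in the further probe set of OCLN and 0.61 and 0.92 in those of CLDN4. CDH1, E-cadherin, read 1157 and 2046, with 0.10 in its further probe set, while the integrin alpha 6 gene ITGA6 read 306 on the control array, 254 under siRNA 1 and 164 under siRNA 2, with -0.83 in its further probe set.

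Targets of p53 were modestly higher. Of 28 measured, 21 were above 0, with a median of 0.24, and 7 were at least 1.5-fold higher and 1 lower, against 4.8% and 4.72% of all measured genes. TP53I3, a quinone oxidoreductase, read 40.6 in the control and 111 with siRNA 2, and CDKN1A, the cyclin-dependent kinase inhibitor p21, read 3129 and 5642, with 0.99 in its further probe set. The pro-apoptotic genes BBC3 and BAX differed by 0.91 and 0.63, but their further probe sets by only 0.34 and 0.14. MDM2, the ubiquitin ligase of p53, read 171 on the control array, 344 under siRNA 1 and 194 under siRNA 2, and its further probe sets lay on both sides of 0, from -0.44 to 0.24. TP53INP1, a stress-induced nuclear protein, read 1200.0 on the control array, 1980.0 under siRNA 1 and 665 under siRNA 2, so the siRNA arrays lay on opposite sides of the control. Of 24 measured apoptosis regulators 3 were at least 1.5-fold higher and 0 lower, beside the same shares.

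Metabolic genes showed a few separate differences. Of 39 measured genes of fatty acid synthesis and oxidation, 5 were at least 1.5-fold higher and 2 lower, against 4.8% and 4.72% of all measured genes, with a median of 0.20. The acyl-CoA synthetase gene ACSL1 read 647 in the control and 1259 with siRNA 2, but its further probe set differed by only 0.19. HADHB and ACADVL, enzymes of mitochondrial beta-oxidation, read 551 and 1879 in the control and 1062 and 2995 with siRNA 2. The 4 further probe sets of HADHB differed by 0.60 to 0.70, and those of ACADVL by 0.48 and 0.64. The elongase gene ELOVL7 read 365 on the control array, 386 under siRNA 1 and 197.5 under siRNA 2, with -0.52 in its further probe set. The oxidation genes named were thus on the higher side and this elongase on the lower. Of 17 measured androgen and steroid metabolism genes 5 were at least 1.5-fold higher and 1 lower. The hydroxysteroid dehydrogenase gene AKR1C3 read 66.4 and 125, and the retinol dehydrogenase gene RDH11 1593 and 2871, with 0.59 and 0.78. AKR1C2, a near-identical paralog of AKR1C3, read 45.2 and 72.9, and reads of one may be shared by the other. In the polyamine pathway MTAP read 186 and 94.2, with -0.89 to -0.50 in its 4 further probe sets, and ODC1, ornithine decarboxylase, 1208 and 707. Of 41 measured respiratory chain genes 0 were 1.5-fold higher and 1 was lower.

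HMOX1 differed more than the other measured antioxidant genes controlled by the transcription factor NRF2. Of 27 measured genes of that list 3 were at least 1.5-fold higher and 1 lower, against 4.8% and 4.72% of all measured genes, with a median of 0.07. Beside HMOX1 these were AKR1C3 and AKR1C2, while NQO1, the quinone reductase, read 2593 in the control and 1458 with siRNA 2, with -0.61 in its further probe set. The 42 measured genes of the unfolded protein and integrated stress response had a median of 0.04, with 2 at least 1.5-fold higher, the transcription factor gene ATF3 (0.60) and SESN2 (0.88). The 34 measured chaperone genes had a median of -0.06. DNAJB4 read 60.4 on the control array, 78.2 under siRNA 1 and 35.0 under siRNA 2.

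Interferon-stimulated genes, which double-stranded RNA can induce through sensor proteins, had no common direction. Of 40 measured, 6 were at least 1.5-fold higher and 3 lower, against 4.8% and 4.72% of all measured genes, with a median of 0.06. IRF7 and IRF9, transcription factors of the interferon response, read 170.3 and 136 in the control and 351 and 278 with siRNA 2, with 0.34 to 0.75 in the 3 further probe sets of IRF9. The RNA sensor gene OAS1 read 64.0 and 114.5. HERC5, the ligase for ISG15, read 139 on the control array, 187 under siRNA 1 and 74.0 under siRNA 2, and IFITM3, a membrane protein that blocks virus entry, 1002, 1012 and 658. HERC5 and IFITM3 were lower with siRNA 2 alone at 1.5-fold. Of 25 measured genes of RNA interference and RNA sensing 1 was at least 1.5-fold higher and 1 lower, which is near the shares of all measured genes and no result about the list. The lower one was DICER1, the ribonuclease that makes small RNAs, which read 303 on the control array, 239 under siRNA 1 and 173 under siRNA 2, with -1.23, -0.90 and -0.70 in its 3 further probe sets.

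Genes around the target stayed within 1.5-fold when read by their brightest probe set. The 6 measured genes in or beside the HOXD cluster, of 14 with a probe set, had differences from -0.35 for MTX2 to 0.31 for ATF2. HNRNPA3 differed by -0.20, but its 3 further probe sets ranged from -0.89 to 0.09. HOXD10 was the only HOXD gene measured, and it was dim, at 44.2 in the control and 49.0 with siRNA 2. HOXD13 was below the floor on both arrays. WDR5, a subunit of histone H3K4 methyltransferases whose coding sequence one label names for the siRNA target position, read 444.5 in the control and 407 with siRNA 2, 1.09-fold lower, and its further probe set differed by -0.17. Of 25 measured genes of its complexes 0 were past 1.5-fold, with a median of 0.02.

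**Figure D5:**
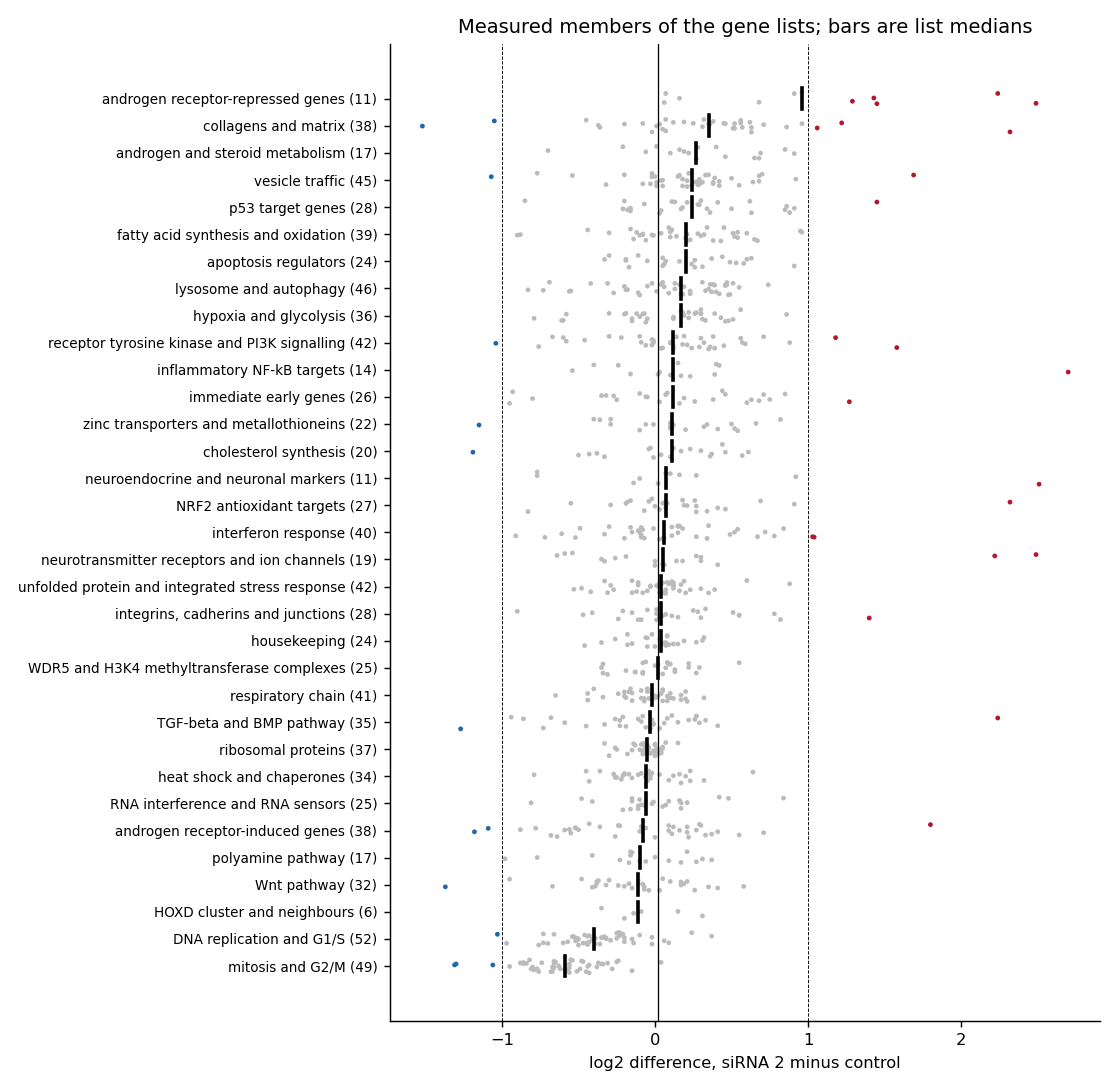
The log2 difference (siRNA 2 minus control, horizontal) of each measured member of the gene lists, with the number measured in brackets; bars are list medians, the solid line is the median of all measured genes (0.02), dashed lines are 2-fold, and red and blue mark members past them. The mitosis list (-0.59) and the replication list (-0.40) lie lowest and the androgen receptor-repressed genes (0.96) highest.

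Markers of nervous tissue were mostly below the floor. Of 29 neuroendocrine and neuronal marker genes with a probe set 11 were measured, with a median of 0.07. Beside TUBB3, the vesicle protein gene SYT4 was higher (1491 in the control and 2829 with siRNA 2), and the neurofilament gene NEFL was lower (325 on the control array, 333 under siRNA 1 and 190.3 under siRNA 2). Of markers of androgen receptor-negative prostate lines 5 of 17 were above the floor on either array, with a summed intensity of 888 in the control and 1025 with siRNA 2, and of leukocyte markers 5 of 15, with 188 and 213. Of the sums for androgen receptor-negative lines, VIM alone gave 660 and 735. S100A4 read 72.4 and 136.5, 1.89-fold higher, and CXCL8, CCN1 and LGALS1 were also above the floor on either array. Other markers of these lines, among them CD44, CAV1, ANXA1, AXL and GSTP1, were below the floor on both arrays.

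The genes past 2-fold were described further by position and structure. The share of genes at least 2-fold lower was highest on chromosome 4, at 10 of 386 measured genes (2.59%), and 0 of 849 on chromosome 19, 0 of 131 on chromosome 21 and 0 of 299 on chromosome 22 were lower. The share at least 2-fold higher was highest on chromosome 22, at 7 of 299 (2.34%). Chromosome medians ran from -0.06 to 0.07. The median gene length was 42.4 kb for lower and 46.0 kb for the genes lower with siRNA 2 alone, against 31.8 kb for higher genes and 28.6 kb for all measured genes. The median G and C content of the promoter windows was 68.0% for lower and 61.0% for higher genes, against 65.3% for all measured. The steroid receptor half-site AGAACA was found in 12 of 67 windows of higher genes (17.9%) and 3 of 60 of lower genes (5.0%). It was found in 8.76% of windows of measured genes and 14.9% of all 27305 windows, so the share in higher genes was near that of all windows. These are descriptions of small sets with no test.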

How the data were processed

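Biotin-labelled cRNA from 3 LNCaP cultures was hybridised to Affymetrix arrays, 1 per siRNA. The authors deposited probe set intensity values on a linear scale in 1 table. The submitters' processing notes name GCOS 1.4, and the background correction, summarisation and normalization are not given in the sources used here. Because sorted values were nearly alike, a shift of most transcripts one way would be hidden if the arrays had been equalised first. Groups came from the titles. Intensities were taken to log2 with a floor at the 50th percentile of all values, without further scaling, in Python 3.11.15 with pandas 2.3.3, numpy 2.4.6 and matplotlib 3.10.9, and the counting was tested on simulated data. Gene names came from the platform annotation. 44961 of 44988 probe sets matched RefSeq by Entrez identifier and 0 symbols changed. A total of 1831 probe sets with several genes and 2569 with none were left out, and 38 probe sets with the values of another of the same gene were counted once. Folds against a value below the floor are lower bounds. The control array is common to the siRNA 1 and siRNA 2 differences. Genes to name came from the 20 highest, the 20 lowest and the 12 farthest each way with siRNA 2 alone. They also came from the 3 highest and 3 lowest of each list and a few genes of interest. Not all genes of these sets are named in the text. Others in the text were chosen after their values were seen. The members and the 39 lists (1330 genes, 968 measured) were chosen with earlier results of these data known. No test was run and depth in reads does not apply.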

Additional observations from a re-analysis of the deposited data

Results flagged for a closer look

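Probe sets to which the annotation gave no gene were outside the comparisons. Of 2473 such probe sets that were not array controls, 1073 were measured, of which 3 were at least 2-fold higher and 8 at least 2-fold lower with siRNA 2 (1.03% together). Of the 47 measured array control probe sets, 0 were past 2-fold.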

How the results depend on the processing

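No paired analysis was possible because each group held 1 array. The 89 higher and 68 lower genes became 52 and 33 under a 75th percentile floor, 47 and 25 with the mean of all probe sets, 28 and 33 with plain probe sets, 536 and 527 at 1.5-fold and 21 and 2 at 3-fold. The 14 higher and 35 lower with siRNA 2 alone became 8 and 13 with the mean, 4 and 17 with plain probe sets, 113 and 206 at 1.5-fold and 3 and 1 at 3-fold, and 19 were lower with the 75th percentile floor. The share of all genes with further probe sets of one sign was 66.9% without cross-matching probe sets. The mitosis median of -0.59 was -0.56 under the 75th percentile floor, -0.54 with the mean and -0.48 with plain probe sets, and the replication median of -0.40 was -0.36, -0.36 and -0.35. The androgen receptor-repressed median of 0.96 was 0.80 with the 25th percentile floor, 0.88 without a floor, 0.63 with the mean and 0.16 with plain probe sets. The collagen and matrix median of 0.35 was 0.26, 0.26, 0.19 and 0.06 under the same settings, and 0.51 with the 75th percentile floor. Fewer genes were tested with the higher floor and with plain probe sets, and otherwise the cause was not tested. Of 1814 values of named genes under the alternatives 1667 moved by less than the SD between probe sets of a gene and 147 moved by more. That share depended on the setting. With the mean of all probe sets 102 of 259 moved by more, and with plain probe sets 13 of 76. Under the 75th percentile floor 28 of 193 did, and under quantile normalization or scaling to a common median 0 of 259. Some named genes within 2-fold had further probe sets of the other sign, such as RFC5, at 0.24 with -0.64 to -0.46. Of 308 list medians 216 moved by less than the SD between probe sets over the root of the list size, and 92 moved by more. With the mean 22 of 39 moved by more and with plain probe sets 29 of 37, against 1 of 39 under quantile normalization. Of the 308, 16 changed sign, in 12 lists with reported medians of at most 0.12 in size. The 69 named genes past 2-fold kept their direction under every alternative that gave a value. Most alternatives could hardly reverse a 2-fold difference, so this says little. Other floors read the same probe set, normalization barely changed the values, and the mean includes that probe set. Plain probe sets gave a value for only 76 of all 259 named genes. Quantile normalization and scaling to a common median left the median of all genes at 0.03. Genes near the floor have the least certain folds.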

Other observations

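Replication-dependent histone genes, which make core and linker histones in S phase, were mostly higher with siRNA 2, although other replication genes were lower. They were singled out after their values were seen. Of 18 measured, 10 were at least 1.5-fold higher, 3 of them at least 2-fold, and 0 were 1.5-fold lower, with a median log2 difference of 0.70, while 4.8% of all measured genes were 1.5-fold higher. H2BC5 read 168 in the control and 452 with siRNA 2, H2BC21 138.5 and 352, H2AC8 108 and 246 and H2BC12 1112 and 2172. The genes on the lower side were H2BC15 (-0.29), H4C3 (-0.29), H2AC20 (-0.20) and H2AC25 (-0.08). Of the 18, H4C3 was the brightest, at 9557 in the control and 7798 with siRNA 2. Histone genes are nearly identical in sequence, so their probe sets may share signal.

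In other families single members stood out after their values were seen. Of 7 measured laminin chain genes 1 was 1.5-fold lower, LAMC1, with a family median of 0.01. Of 19 measured G protein subunit genes 2 were 1.5-fold lower, GNB4 and GNG12, and 0 higher, with a median of -0.03. Of 15 measured tubulin genes 2 were at least 2-fold higher, TUBB3 (2.51) and TUBA1A (1.39), with a median of 0.09, and TUBA1A read 174 on the control array, 907 under siRNA 1 and 458 under siRNA 2.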
